A study of Saccharomyces cerevisiae CEN.PK113-7D with 6 samples.

Results

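Glutamate and glutamine carry nearly all the nitrogen that yeast cells build into other molecules. The 10 genes described here encode the enzymes that make and break down glutamate (GDH1, GDH2, GDH3, GLT1), the enzyme that makes glutamine (GLN1), and the route through gamma-aminobutyrate, GABA (GAD1, UGA1, UGA2, UGA3, UGA4). They were chosen by gene name and function, with earlier results of these data known, and all 10 of them were measured among the 5449 Saccharomyces cerevisiae genes on the arrays, each by 1 probe set without a suffix for shared probes.

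RNA came from the laboratory strain CEN.PK113-7D grown on glucose, either in batch culture, which receives no fresh medium (Batch, replicates 1, 2 and 3), or in a chemostat, which is fed and drained continuously (Chemostat, replicates 4, 8 and 9). Both groups carry the same strain without any added allele or agent, biomass is labelled as sampled at steady state, and biotin-labelled total RNA was hybridised to 6 single-channel arrays. The labels and notes used here do not state the nitrogen source, the limiting nutrient, the growth rate or the batch growth phase. They also do not say whether the replicates of a group were grown separately, so a p-value covers only the differences among these arrays, part of which may be technical.

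Yeast assimilates ammonium in several ways. The NADP-dependent glutamate dehydrogenases Gdh1 and Gdh3 join ammonium to 2-oxoglutarate, an intermediate of the tricarboxylic acid cycle. Glutamine synthetase, Gln1, adds a further ammonium to glutamate, and glutamate synthase, Glt1, turns glutamine and 2-oxoglutarate back into glutamate. The NAD-dependent enzyme Gdh2 runs the other way and releases ammonium from glutamate. In the GABA route, glutamate is decarboxylated to GABA, whose carbon then enters the tricarboxylic acid cycle as succinate.

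Values are log2 signals as deposited, with the base taken as 2 from their range, and a change is the chemostat mean minus the batch mean. Errors of means are SDs over 3 arrays and those of changes are limma's standard errors, with p-values adjusted over all 5449 genes by the Benjamini-Hochberg method and a threshold of 0.05. Signals of fission yeast probe sets served as background, and their 95th percentile lay between 5.89 and 5.98 on the 6 arrays. The median signal of all genes lay between 7.95 and 7.97, and Pearson correlations across genes were at least 0.994 within a group and at most 0.853 across groups. Genes of mating type a, which is that of the strain, had group means of 8.94 to 11.18 in batch and 7.38 to 9.90 in chemostat (5 of 5 genes measured), and the 2 measured of 4 genes of mating type alpha had means of 6.60 to 7.13. An array measures RNA per amount of total RNA, so a change in every cell and a change in the share of cells that hold the transcript cannot be told apart.

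Of the 10 genes, 8 were higher in chemostat, 1 was lower and 1 did not pass. The 8 include UGA4, whose call was lost in 8 of 17 alternative settings. In 1 more its direction turned, also without a call. Among all genes 33.6% were higher and 44.8% lower, so that 78.4% passed in either direction, and passing alone sets no gene apart on these arrays. The median change of the 10 genes was 0.65 log2 units, against -0.06 for all genes, and their median size was 0.66 against 0.35. The groups did not overlap for 9 of the 10 genes, against 81.7% of all genes. The fitted rises spanned a wide range, from 0.15 for UGA3 to 3.14 for GDH3, which was at background in batch.

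**Figure D1:**
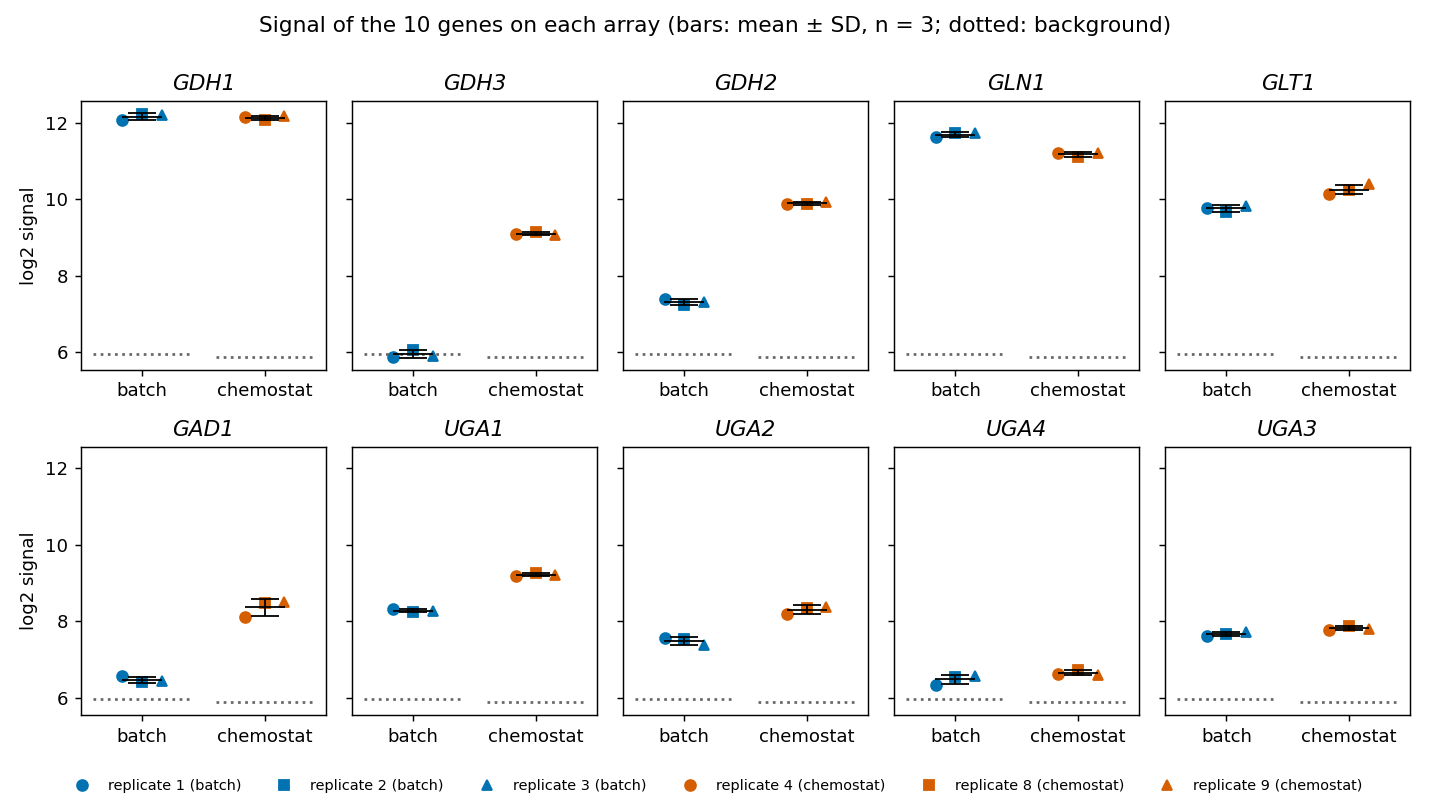
Log2 signal of each of the 10 genes (vertical axis) on the 3 batch arrays (blue) and the 3 chemostat arrays (orange); bars are means ± SD, and dotted lines give the mean 95th percentile of fission yeast probe sets in each group. GDH3 lay at background in batch (5.96) and at 9.10 in chemostat, whereas GDH1 stood near 12.1 in both.

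The glutamate dehydrogenase genes did not move together. GDH1 (YOR375C, chromosome XV), the main ammonium-assimilating enzyme of glucose-grown yeast, had signals of 12.06, 12.22 and 12.20 in batch replicates 1, 2 and 3, and of 12.15, 12.07 and 12.16 in chemostat replicates 4, 8 and 9. The groups overlapped, with batch replicate 1 the lowest array of all. The means were 12.16 ± 0.09 and 12.13 ± 0.05, and the change of -0.03 (SE 0.054) did not pass in limma's test (adjusted p = 0.617). Its 95% confidence interval ran from -0.16 to 0.09 log2 units. The change was 0.08 after quantile normalization of the arrays, which also did not pass (adjusted p = 0.225).

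GDH3 (YAL062W, chromosome I) encodes the second NADP-dependent isozyme, known from work on yeast to be favoured during growth on non-fermentable carbon. Its signals were 5.89, 6.07 and 5.92 on the batch arrays and 9.09, 9.14 and 9.07 on the chemostat arrays. In batch, replicates 1 and 3 lay below the fission yeast percentile of their own array and replicate 2 just above it, while the 3 chemostat arrays were close together and far above it. The fitted change was 3.14 (SE 0.055, limma adjusted p = 2.46e-09), which starts from background and is limited by it. With each batch array held at the higher of background and its own signal, GDH3 was at least 8.57-fold higher in chemostat. Subtraction of the fission yeast median from the linear signals raised the change to 4.31.

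GDH1 and GDH3 are close paralogues, and cross-hybridisation between their probe sets was not tested. In batch, GDH3 read 5.96 ± 0.10 on the same arrays on which GDH1 read 12.16.

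GDH2 (YDL215C, chromosome IV), the enzyme that breaks glutamate down to ammonium and 2-oxoglutarate, rose as well. Batch signals were 7.41, 7.25 and 7.31 and chemostat signals 9.87, 9.88 and 9.92, without overlap and with a chemostat SD of 0.03. The change was 2.57 (SE 0.049, limma adjusted p = 3.21e-09), or 5.94-fold. Of the 3 glutamate dehydrogenases, GDH1 thus held its signal within the interval given above. GDH3, the other NADP-dependent isozyme, and the NAD-dependent GDH2 rose.

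**Figure D2:**
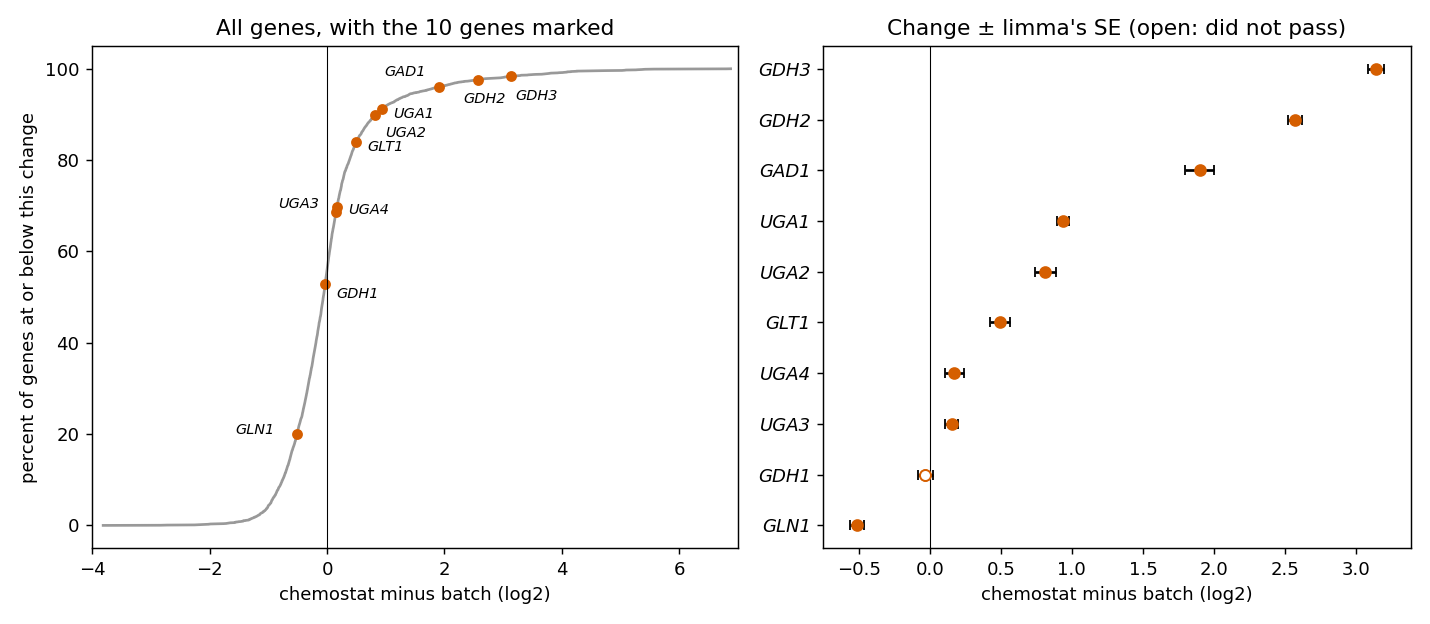
Left, the cumulative percent of all 5449 genes against their change in log2 units, with the 10 genes marked; right, the change of each gene with limma's standard error, GDH1 open because it did not pass. GDH3, GDH2 and GAD1 lie in the upper tail, at 3.14, 2.57 and 1.90, and GLN1 is the gene to the left of GDH1, at -0.51.

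Glutamine synthetase and glutamate synthase, which work as a cycle, moved in opposite directions. GLN1 (YPR035W, chromosome XVI) gave 11.62, 11.73 and 11.73 in batch and 11.22, 11.11 and 11.21 in chemostat. Every chemostat array was below every batch array, and the mean went from 11.69 ± 0.06 to 11.18 ± 0.06. GLN1 fell by 0.51 log2 units (SE 0.050, limma adjusted p = 2.37e-05) and was 1.43-fold lower. Among all genes, 64.4% had a smaller change, so this was a fall of ordinary size on these arrays. After quantile normalization the change was -0.38 (limma adjusted p = 0.000342).

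GLT1 (YDL171C, chromosome IV), glutamate synthase, gave 9.77, 9.67 and 9.84 in batch and 10.13, 10.25 and 10.39 in chemostat. It spread more widely in chemostat (SD 0.13) than in batch (SD 0.08), with replicate 4 the lowest chemostat array, and the groups did not overlap. The rise was 0.49 (SE 0.072, limma adjusted p = 0.000281), or 1.41-fold. It was also of ordinary size, since 63.0% of all genes had a smaller change. Neither GLN1 nor GLT1 passed when a change of at least 1.5-fold was required (limma's treat).

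The GABA route was higher at each of its enzymes. GAD1 (YMR250W, chromosome XIII), glutamate decarboxylase, makes GABA from glutamate. Its signals were 6.56, 6.42 and 6.44 in batch and 8.12, 8.49 and 8.52 in chemostat. Chemostat replicate 4 lay 0.39 below the mean of replicates 8 and 9, the widest gap of this kind among the 10 genes, yet all chemostat arrays were well above all batch arrays. GAD1 rose by 1.90 (SE 0.10, limma adjusted p = 8.36e-07), 3.73-fold, by 2.03 without chemostat replicate 4, and by 2.49 after background subtraction.

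UGA1 (YGR019W, chromosome VII), the GABA transaminase that yields succinate semialdehyde, gave 8.34, 8.25 and 8.27 in batch and 9.19, 9.26 and 9.22 in chemostat. The arrays of each group lay close together, and the rise of 0.94 (SE 0.042, limma adjusted p = 3.12e-07) was 1.92-fold. UGA2 (YBR006W, chromosome II), the dehydrogenase that turns the semialdehyde into succinate, gave 7.58, 7.54 and 7.38 in batch and 8.19, 8.36 and 8.39 in chemostat. It rose by 0.81 (SE 0.072, limma adjusted p = 1.25e-05), 1.76-fold, again without overlap.

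The regulator and the permease of the route moved little. UGA3 (YDL170W, chromosome IV), the transcription activator of the UGA genes, gave 7.61, 7.67 and 7.72 in batch and 7.77, 7.88 and 7.82 in chemostat, a rise of 0.15 (SE 0.047, limma adjusted p = 0.0163). The call ended without chemostat replicate 8 (0.13, adjusted p = 0.0777). UGA3 is the direct neighbour of GLT1 in the R64 gene table, and GLT1 rose by 0.49.

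UGA4 (YDL210W, chromosome IV), a GABA permease, gave 6.35, 6.55 and 6.56 in batch and 6.63, 6.73 and 6.61 in chemostat, with all arrays above the fission yeast percentile. The nearest arrays, batch replicate 3 and chemostat replicate 9, were 0.044 apart. The rise of 0.17 (SE 0.067, limma adjusted p = 0.0428) was no longer called without batch replicate 1 (0.10, adjusted p = 0.0988), chemostat replicate 4 (0.18, adjusted p = 0.0580), chemostat replicate 8 (0.13, adjusted p = 0.148) or chemostat replicate 9 (0.20, adjusted p = 0.0518). After quantile normalization it was -0.01 (adjusted p = 0.900), so no direction is given for UGA4.

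Gaps between genes were compared on each array, which removes any scaling common to both genes of a pair. Of 5 pairs, the groups did not overlap for 4 of them, and in each of these the two-sided exact permutation p was 0.1, the smallest that 3 against 3 arrays allow, so none can pass 0.05. Relative to GDH1, GDH3 was at least 3.13 log2 units higher in chemostat than in batch (fitted gap change 3.17, with the batch signal at background), and GDH2 was 2.60 (SE 0.099) higher. GLT1 gained 1.01 (SE 0.10) on GLN1. UGA1 gained less than GAD1, the gap between them changing by -0.96 (SE 0.11). For UGA2 against UGA1 the gap changed by -0.12 (SE 0.073), the groups overlapped, and the two-sided exact permutation p was 0.2.

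**Figure D3:**
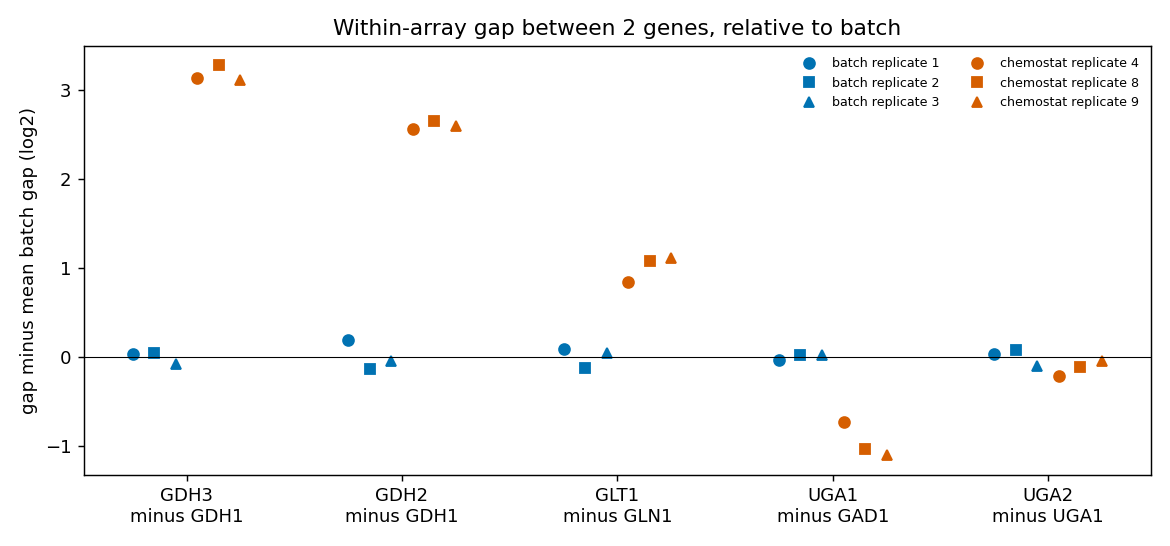
Within-array difference between the log2 signals of 2 genes, minus the mean of that difference in batch, for 5 pairs (horizontal axis); each point is an array, blue for batch and orange for chemostat. The chemostat arrays sit 3.17 above the batch arrays for GDH3 minus GDH1 and 0.96 below for UGA1 minus GAD1, and overlap with them for UGA2 minus UGA1.

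The genes whose profiles lay nearest to those of the strongest rise and the fall were found by the root mean square distance of mean-centred signals over the 6 arrays, out of 5448 other genes. Nearest to GDH3 were GCY1 (distance 0.096 log2 units), a glycerol dehydrogenase, OM14 (0.0996), a protein of the mitochondrial outer membrane, and MAL11 (0.11), a maltose permease, which rose by 3.14, 3.09 and 3.05. Nearest to GLN1 were RPB3 (0.024), a subunit of RNA polymerase II, GBP2 (0.028), an mRNA-binding protein, and MOB2 (0.030), an activator of the Cbk1 kinase. RPB3 fell by 0.50, GBP2 fell by 0.53 and MOB2 fell by 0.51. These distances mostly reflect equal changes between the groups, since 2 conditions were measured.

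The genes around the 10 were read from 8 lists with 79 measured members, of which 35 were higher, 32 lower and 12 did not pass, with a median change of 0.04. The lists are described by counts, and no list was tested as a set.

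2-Oxoglutarate, the carbon skeleton of glutamate, is made and used by genes of which 9 of 14 measured were higher and 5 lower (median 0.92). This count is read beside 33.6% higher and 44.8% lower among all genes. IDP2, the cytosolic NADP-dependent isocitrate dehydrogenase, rose by 4.36 (SE 0.077), from 6.40 ± 0.11 to 10.76 ± 0.13. IDP3, its peroxisomal counterpart, rose by 2.89 (SE 0.056). CIT3, a mitochondrial citrate and methylcitrate synthase, was at background on 2 of 3 batch arrays and at least 10.6-fold higher in chemostat. ODC2, a mitochondrial carrier of 2-oxoglutarate and related acids, fell by 1.01 (SE 0.059). IDH1 and IDH2 encode the subunits of the NAD-dependent isocitrate dehydrogenase; IDH1 fell by 0.25 and IDH2 fell by 0.62, while KGD1 and KGD2, subunits of the 2-oxoglutarate dehydrogenase complex, rose by 1.39 and 1.38.

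The median size of change was 0.097 in the retrograde list and 0.19 in the list of transcription regulators. It was 0.35 among all genes and 1.11 in the list of 2-oxoglutarate genes. Counts in both regulator lists are read beside 33.6% higher and 44.8% lower among all genes. In the retrograde pathway, which in yeast links mitochondrial state to 2-oxoglutarate supply, 2 of 5 genes were higher and 3 did not pass. LST8, a component of the TOR complexes, rose by 0.39 (SE 0.054) and RTG1, one of its transcription factors, by 0.32 (SE 0.053), whereas RTG2 stood at 8.77 in batch and 8.78 in chemostat. After quantile normalization, 1 gene of this list was higher instead of 2. Of 12 regulators of nitrogen use, amino acid synthesis and respiration, 7 were higher, 3 lower and 2 did not pass (median 0.15). HAP4, the activating subunit of the CCAAT-binding complex, rose by 1.02 (SE 0.11) and GCN4, the activator of amino acid synthesis, by 0.70 (SE 0.039). DAL80, a GATA repressor of nitrogen-use genes, was below background on every batch array and at least 1.20-fold higher. DAL81, which acts with Uga3 at the UGA genes, fell by 0.19 (SE 0.045). GLN3, a GATA activator, stood at 6.72 in batch and 6.76 in chemostat and did not pass.

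Of 9 permease genes, 4 were higher, 3 lower and 2 did not pass (median 0.02), beside 33.6% higher and 44.8% lower among all genes. PUT4, which takes up proline and GABA, rose by 3.70 (SE 0.062), from 6.16 ± 0.11 to 9.86 ± 0.07. The general amino acid permease GAP1 rose by 1.19 (SE 0.076), and the glutamine permease GNP1 fell by 1.70 (SE 0.12). Among the ammonium permeases, MEP1 rose by 0.72 (SE 0.094) and MEP2 by 0.84 (SE 0.18), while MEP3 fell by 1.08 (SE 0.060). DIP5, the permease for glutamate and aspartate, fell by 0.67 (SE 0.20, limma adjusted p = 0.0133). It was no longer called after background subtraction (adjusted p = 0.0525), with a trended and robust variance (adjusted p = 0.0635), with treat or at an adjusted p under 0.01. Its signal was higher in 1 array of each group. That array was batch replicate 1, 0.60 above the mean of replicates 2 and 3, and chemostat replicate 4, 0.55 above the mean of replicates 8 and 9. AGP1, a broad amino acid permease, showed the same gaps, 0.70 and 0.93, and its means of 8.62 in batch and 7.97 in chemostat gave no call (limma adjusted p = 0.0630). The part of replicate differences in these results was not tested.

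**Figure D4:**
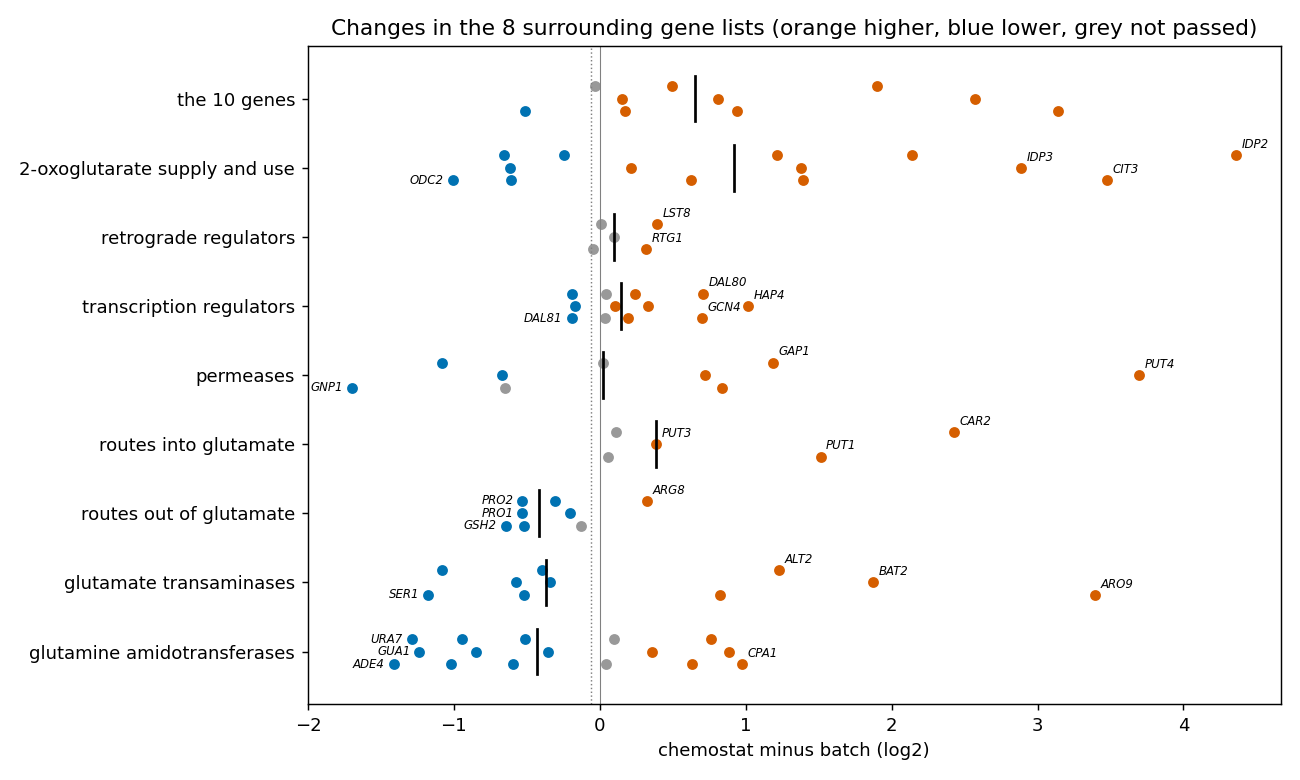
Change in log2 units (horizontal axis) for the 10 genes and for each measured gene of 8 surrounding lists; orange genes were higher, blue genes lower and grey genes did not pass, black bars are list medians and the dotted line is the median of all genes (-0.06). IDP2 (4.36) and PUT4 (3.70) lie far to the right, CIT3, ARO9, DAL80 and GDH3 are drawn at fitted changes from signals at or near background in batch, and the medians of the 3 lower lists lie between -0.43 and -0.37.

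Routes into and out of glutamate are short lists, read beside 33.6% higher and 44.8% lower among all genes, and the difference between them was not tested. Of 5 measured genes that lead from proline and arginine to glutamate, 3 were higher and 2 did not pass (median 0.39). CAR2, the ornithine transaminase, rose by 2.43 (SE 0.10), PUT1, the proline oxidase, by 1.51 (SE 0.067), and PUT3, its transcription activator, by 0.39 (SE 0.057). Of 8 genes that lead from glutamate to proline, arginine and glutathione, 1 was higher, 6 were lower and 1 did not pass (median -0.41). GSH2, glutathione synthetase, fell by 0.64 (SE 0.044), and PRO1 and PRO2, the first enzymes of proline synthesis, each fell by 0.53. ARG8, the acetylornithine aminotransferase of arginine synthesis, rose by 0.32 (SE 0.049). None of these 8 genes passed limma's treat, which tests for a change beyond 1.5-fold, although the fitted fall of GSH2 was 1.56-fold.

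Enzymes that pass the nitrogen of glutamate or glutamine on moved in both directions, as all genes did (33.6% higher, 44.8% lower). Among 10 genes listed as transaminases, 4 were higher and 6 lower (median -0.37). ARO9, an aromatic aminotransferase, was below background on every batch array and at least 7.16-fold higher in chemostat. BAT2, a branched-chain aminotransferase, rose by 1.87 (SE 0.060), and ALT2, listed here as a paralogue of the alanine transaminase gene ALT1, by 1.23 (SE 0.074). SER1, the phosphoserine aminotransferase, fell by 1.18 (SE 0.062). Of 16 measured genes for enzymes that use glutamine as a nitrogen donor or partner such enzymes, 5 were higher, 9 lower and 2 did not pass (median -0.43). ADE4, which opens purine synthesis, fell by 1.41 (SE 0.043), the CTP synthase gene URA7 fell by 1.29 (SE 0.077) and GUA1, GMP synthase, fell by 1.24 (SE 0.048). CPA1, the small subunit of the arginine pathway's carbamoyl phosphate synthetase, rose by 0.97 (SE 0.053).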

How the data were processed

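The authors deposited 1 log2 signal per probe set and array (4.95 to 13.3), for which the submitters' processing notes name PLIER. Its version, background correction and any scaling between arrays are not stated there. The deposited values were not scaled further. Precision is limited by the number of arrays, 3 a group.

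Of 10928 probe sets, 5498 matched 1 S. cerevisiae gene through the R64 reference gene table, and 1746 with lower-case symbols outside that table were taken as S. pombe. The brightest probe set stood for a gene (5449 genes). Chemostat was compared with batch by limma 3.58.1 (lmFit and eBayes) in R 4.3.3, without covariates, and pairs of genes by exact permutation in scipy 1.17.1. Named list genes are the 3 largest changes that passed and the largest in the other direction. Other names were chosen after their values were seen: IDH1, IDH2, KGD1, KGD2, RTG2, GLN3, MEP1, MEP2, MEP3, DIP5, AGP1 and the closing pairs. Some listed genes were not analysed here. The 10 genes and all lists were chosen with earlier results of these data known.

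The script was tested on simulated data for chemostat minus batch (5449 genes, each with its own residual spread), in which 200 genes were shifted. Of 50 genes shifted by 0.25 log2 units, 62% were recovered. Recovery was 92% at 0.5 and 100% at 1 and 2, with 8 false calls among 185. In the real data 78.4% of genes passed, so these rates do not carry over to the real calls.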

Additional observations from a re-analysis of the deposited data

How the results depend on the processing

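Across 17 alternatives (array scaling, background subtraction, variance model, dim-gene filter, each replicate left out, stricter thresholds), GDH2, GDH3, GAD1, UGA1 and UGA2 kept their direction and call, and GDH1 passed in none. GLN1 and GLT1 kept theirs except with treat at 1.5-fold. UGA3 lost its call with treat, at an adjusted p under 0.01 and without chemostat replicate 8. UGA4 kept its call in 8 alternatives, lost it in 8 and turned to -0.010, also without a call, after quantile normalization. The cause was not tested. Not all 17 were separate tests of the genes described here. Averaging the probe sets of a gene, also among the 17, left their signals unchanged, because each had 1 probe set. The dim-gene filter kept GDH3, although 2 of its batch arrays lay below background, and its change stayed at 3.14. That filter was therefore no test of a rise from background. Stricter thresholds left the fitted changes as they were, so they tested calls and not directions. No paired analysis was possible because the groups share no replicate numbers.

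Treat at 1.5-fold, which demands larger changes, left 601 genes higher and 564 lower, and 5 of the 10 genes higher and 0 lower. It left 7 higher and 1 lower genes of 2-oxoglutarate supply and use, and 0 retrograde regulators in either direction. Transcription regulators kept 2 higher and 0 lower, and permeases 2 higher and 2 lower. Routes into glutamate kept 2 higher and 0 lower genes, and routes out of it 0 in either direction. Transaminases kept 3 higher and 2 lower, and amidotransferase genes 2 higher and 6 lower. For quantile normalization and background subtraction, only some results are given here. Quantile normalization left 1 higher retrograde regulator and gave gap changes of 2.99 for GDH3 minus GDH1, 2.46 for GDH2 minus GDH1 and 0.87 for GLT1 minus GLN1. Background subtraction gave a median of 0.74 for the 10 genes, and gap changes of 4.34 for GDH3 minus GDH1, 2.92 for GDH2 minus GDH1 and -1.46 for UGA1 minus GAD1; it stretches dim genes by construction. The pseudocount planned for linear values was not run, because the values are logarithms.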

Other observations

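Several genes around glutamate exist as related pairs, mostly for the same reaction in different compartments or with different regulation. Equal activity of both products of a pair is not implied. Of 8 such pairs within the lists, picked after their values were seen, 5 had 1 gene higher and the other lower by limma's adjusted p. Among all genes 33.6% were higher and 44.8% lower, so opposite calls in a pair are common on these arrays. The 8 are not every such pair in the lists, and CIT1 and CIT2, for example, were left out. IDP2 rose by 4.36 while the mitochondrial IDP1 fell by 0.66 (SE 0.052). The carrier gene ODC1 rose by 2.14 (SE 0.063) while ODC2 fell by 1.01. The cytosolic branched-chain aminotransferase gene BAT2 rose by 1.87 while the mitochondrial BAT1 fell by 1.08 (SE 0.041). ARO9 rose from background while ARO8, the other aromatic aminotransferase gene, fell by 0.58 (SE 0.069). The CTP synthase gene URA8 rose by 0.63 (SE 0.042) while URA7 fell by 1.29. The other pairs moved together: ALT1 and ALT2 rose by 0.83 and 1.23, AAT1 fell by 0.52 and AAT2 fell by 0.34, and ASN1 fell by 0.51 and ASN2 fell by 1.02.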
